A study of Rattus norvegicus with 26 samples.

Results

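The 16 rats that received doxorubicin, with or without the senolytic ABT-263, were compared as a single treated group with the 10 vehicle rats, to describe differences in dentate gyrus RNA that both treated groups carried. The treated rats were every rat of the Dox group and of the Dox + ABT group by their labels, 16 of the 26 rats in the series, and no rat was chosen by a measured value. Rows of the deposited values were summed by gene, and the 15595 of 17910 genes whose mean reached at least 5 normalized counts were tested.

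All rats were male Fischer 344 (F344) rats aged 6 months, and 1 library was sequenced from the dentate gyrus of each. The 8 Dox rats and the 8 Dox + ABT rats received Dox intraperitoneally at 2 mg/kg once weekly for 4 weeks. ABT-263 went to the Dox + ABT rats alone, orally at 12 mg/kg, in courses of 5 daily doses with a week off between courses. The 10 Veh rats were given vehicle by gavage, with no injection stated in the sources used here, and came from a continuing study of senolytics in brain aging, so membership of that study and absence of Dox cannot be told apart here. No group received ABT-263 without Dox.

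Doxorubicin is an anthracycline that traps topoisomerase II on DNA and generates reactive oxygen species, and it crosses the blood-brain barrier poorly. ABT-263 (navitoclax) inhibits anti-apoptotic proteins of the BCL-2 family and removes some senescent cells. The dentate gyrus holds the granule cells of the hippocampus, a niche of adult neurogenesis, and the glia and vessels that serve them. The granule cell markers Prox1 (1680 to 3587 normalized counts over the 26 rats) and Calb1 (637 to 1359) were high in every library. Wfs1, which marks pyramidal cells of the CA fields, ranged from 884 to 13686 over the same rats. Its difference between treated and Veh rats was -0.25 on the log2 scale (limma p = 0.578). In bulk tissue, fewer cells of a type and less RNA per cell cannot be told apart.

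Libraries differed in the share of normalized counts taken by the 89 ribosomal protein genes, and this share entered each test as a covariate on the log2 scale. In Veh the share was 1.53% ± 0.484 (SD, n = 10), in Dox it was 1.31% ± 0.369 (SD, n = 8), and in Dox + ABT it was 1.14% ± 0.128 (SD, n = 8). The treated rats lay 0.27 below Veh on the log2 scale (difference -0.27, permutation test over rats, two-sided, p = 0.11). The 13 mitochondrially encoded genes took 11.9% ± 3.68 in Veh and 8.76% ± 2.56 in the treated rats (log2 difference -0.407, permutation p = 0.0294). Once group means were removed, the leading principal component split the libraries into 2 kinds. Each group was centred on its own mean, so a kind is a position relative to the rat's own group. Comparisons of treated with Veh rats within a kind carry this limit. The ribosomal share was at most 1.32% in the first kind and at least 1.39% in the second. By group (Veh, Dox, Dox + ABT) the first kind held 4, 5 and 7 rats, and the second kind 6, 3 and 1. The estimated depth ran from 10139500 to 24326700 reads per library and did not separate the groups (permutation p = 0.804). With the kind of library as covariate in place of the ribosomal share, 102 genes were higher and 87 lower at limma p under 0.01, against 135 and 135 with the share. Dox rats 1 and 2 stood apart together. In 112 genes both lay above, and in 77 below, every one of the other 24 rats by at least 1.5 times, a total of 189, where the next of the 325 pairs of rats (Dox rats 5 and 7) had 51 and the median pair 1. Their values differed from each other and the cause was not tested. Without both, an alternative chosen after seeing the data, 105 genes were higher and 115 lower (91 and 94 shared), and 161 of the 270 called genes were called again.

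**Figure D1:**
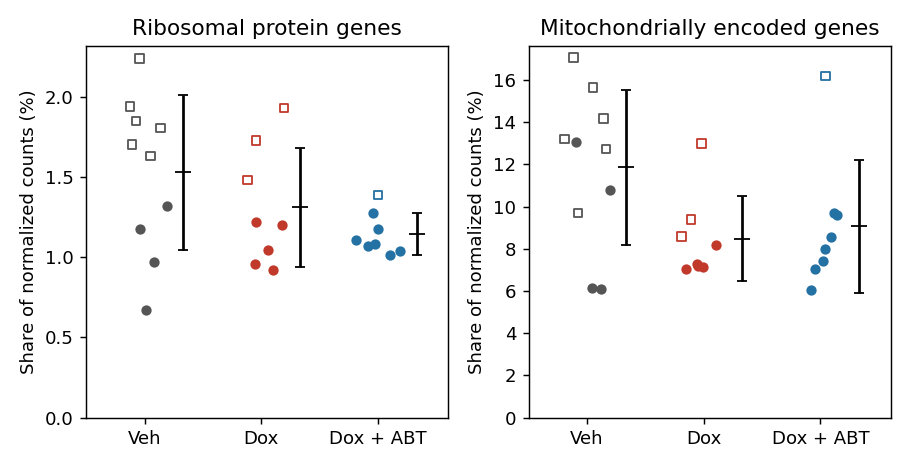
Share of normalized counts (%) taken by ribosomal protein genes (left) and by mitochondrially encoded genes (right) in each rat, by group. Filled circles are libraries of the first kind, open squares those of the second, and bars give the mean ± SD. The ribosomal share ran from 0.669% to 2.24% in Veh and from 0.919% to 1.93% in the treated rats, and the 1 Dox + ABT library of the second kind had a mitochondrial share of 16.2%.

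At limma p under 0.01, the unadjusted threshold of the study's methods, 135 genes were higher (0.866% of those tested) and 135 lower (0.866%) in the treated rats than in Veh. These 270 genes were 1.73% of those tested, where 156 genes would pass with no difference in any gene. After Benjamini-Hochberg adjustment over all tested genes, 1 gene (0.00641%), Dbp, had an adjusted p under 0.05, while 1244 genes (7.98%) had an unadjusted p under 0.05. The counts leaned on single rats. Without Veh rat 11, which had the lowest ribosomal share (0.669%), 75 genes were higher and 61 lower, 0.872% of those tested and fewer than the 156, and no gene passed the adjustment (0 genes in limma, with 759 at an unadjusted p under 0.05). Without Veh rat 9 the counts were 79 and 80, and without Dox + ABT rat 4 they were 215 and 243. Without the covariate 396 genes were higher and 364 lower. The split between the directions also moved with the scaling, to 107 higher and 159 lower with quantile normalization and to 103 and 160 with ranks as normal scores.

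A gene was taken as shared when the pooled comparison called it, both treated groups differed from Veh in that direction, the smaller of these differences was at least 0.5 of the larger, and Dox and Dox + ABT did not differ from each other at p under 0.05. By this definition 215 of the 270 called genes were shared (1.38% of those tested), with 110 higher (0.705%) and 105 lower (0.673%). The definition does not show that Dox and Dox + ABT were alike, and both comparisons use the same Veh rats. Among the 110 higher genes the median difference from Veh was 0.47 on the log2 scale in the pooled comparison, 0.44 in Dox and 0.45 in Dox + ABT. Among the 105 lower genes it was -0.33, -0.34 and -0.29. Over all tested genes the median pooled difference was 0.0045. The higher genes had a median level of 103 normalized counts and 41 of them had a mean under 50, while the lower genes had a median level of 372 and the tested genes one of 265. Names of clones or predicted loci made up 26 of the higher genes and 14 of the lower ones, and 3 of the higher ones hold the same values in every rat, which was not examined further. For 37 of the 110 higher genes and 36 of the 105 lower genes, all 16 treated rats lay on one side of the Veh median, which held for 314 of all tested genes. The shared genes were chosen by p from these same rats, so these counts are no separate support. Called again without each of the 26 rats in turn were 39 of the 215 shared genes.

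**Figure D2:**
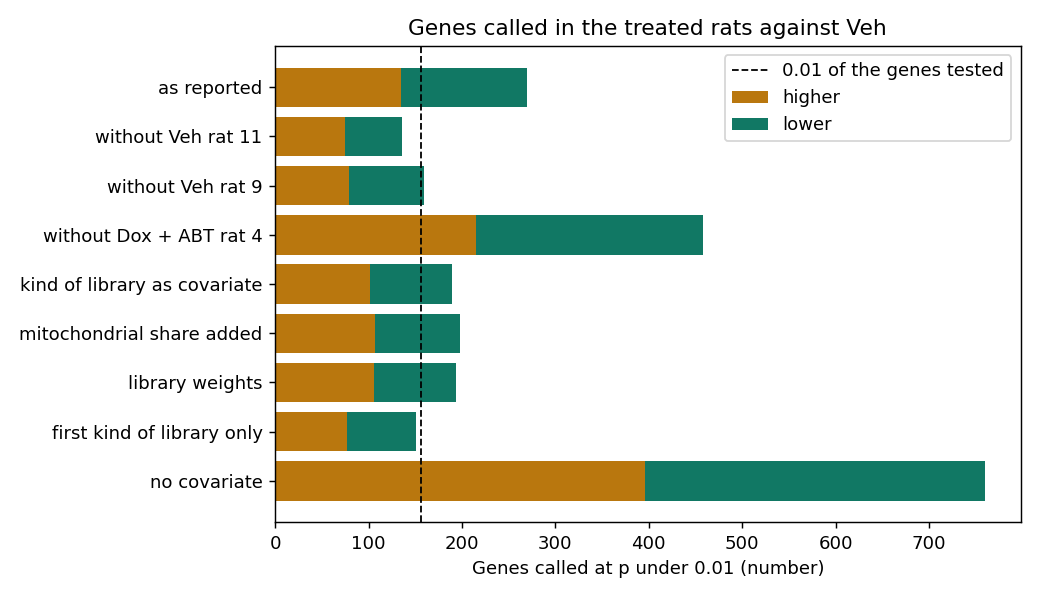
Number of genes called at limma p under 0.01 in the treated rats against Veh, higher and lower stacked, as reported and under other choices of libraries, covariate or model. The dashed line marks 156, which is 0.01 of the 15595 genes tested; the count was 270 as reported, 136 without Veh rat 11 and 760 without a covariate.

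The smallest p in the comparison belonged to a gene of the circadian clock. Cells keep time with a loop in which BMAL1 (encoded by Arntl) and CLOCK switch on Per, Cry, Nr1d1 and Dbp, whose products feed back on it. BMAL1 and CLOCK bind E-boxes, the PAR bZIP factor DBP binds D-boxes, and the ROR activators and REV-ERB repressors compete for RORE sites such as those of Arntl. RNA of these genes cycles over the day, and the hour at which each rat was killed is not given in the sources used here. The promoters of the 3 clock genes that the pooled comparison called are shown from 250 bases before to 50 after the RefSeq start (GRCr8), in lower case with any matched motif in capitals. Motifs were searched on both strands as CACGTG (E-box), TTANGTAA (D-box) and TAGGTCA (RORE), which 6.42%, 2.24% and 2.63% of 33469 promoters of that length hold. The windows are chr1:105312006-105312305 on the plus strand for Dbp, chr1:176766078-176766377 on the plus strand for Arntl (RefSeq symbol Bmal1) and chr1:225970924-225971223 on the minus strand for Rorb.
Dbp: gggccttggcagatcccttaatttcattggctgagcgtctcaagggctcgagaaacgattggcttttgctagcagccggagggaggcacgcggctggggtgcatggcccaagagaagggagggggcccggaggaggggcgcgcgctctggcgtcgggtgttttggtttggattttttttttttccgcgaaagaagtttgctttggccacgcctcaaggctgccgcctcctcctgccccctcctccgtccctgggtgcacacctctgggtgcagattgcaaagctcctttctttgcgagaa
Arntl: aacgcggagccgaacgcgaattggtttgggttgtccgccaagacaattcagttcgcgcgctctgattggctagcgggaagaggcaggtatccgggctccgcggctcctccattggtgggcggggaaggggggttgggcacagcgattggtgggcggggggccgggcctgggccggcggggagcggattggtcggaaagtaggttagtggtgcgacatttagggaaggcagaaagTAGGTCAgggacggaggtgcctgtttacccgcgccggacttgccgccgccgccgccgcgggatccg
Rorb: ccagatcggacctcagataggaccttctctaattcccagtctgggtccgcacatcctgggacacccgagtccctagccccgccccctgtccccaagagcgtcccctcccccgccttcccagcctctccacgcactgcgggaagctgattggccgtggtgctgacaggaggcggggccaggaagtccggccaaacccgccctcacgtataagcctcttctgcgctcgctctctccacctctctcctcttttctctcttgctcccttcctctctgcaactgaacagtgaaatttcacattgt
The Arntl window holds 1 RORE match, at position 235 of its 300 bases, and the Dbp and Rorb windows hold none of the 3 motifs.

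Dbp, an output transcription factor of the clock, had 1333 to 2500 normalized counts in Veh (median 2048), 1008 to 1441 in Dox (median 1202) and 972 to 1608 in Dox + ABT (median 1098). Of the 16 treated rats, 13 lay below every Veh rat and all 16 below the Veh median, with 1 Dox rat and 2 Dox + ABT rats inside the Veh range. Dbp fell by 0.48 on the log2 scale (standard error 0.074, limma p = 4.64e-07, adjusted p = 0.00723), by 0.51 in Dox and by 0.44 in Dox + ABT. Its level was higher in libraries with a higher ribosomal share (slope 0.54 per log2 unit), and the 6 Veh libraries of the second kind had 2041 to 2500 normalized counts against 1333 to 1519 in the 4 of the first kind. Among libraries of the first kind the difference was -0.30 (p = 0.00503), and among those of the second it was -0.67 (p = 1.15e-05). Without Veh rat 11 it was -0.43 (p = 1.91e-05), the highest p with any 1 rat left out, and no longer passed the adjustment over all genes.

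Arntl was on the opposite side. Its levels ran from 279 to 396 in Veh (median 315), from 343 to 455 in Dox (median 396) and from 327 to 469 in Dox + ABT (median 374). All 16 treated rats lay above the Veh median and 5 above every Veh rat, so the ranges overlapped. Arntl rose by 0.26 (standard error 0.069, limma p = 0.000592, adjusted p = 0.514), by 0.29 in Dox and by 0.24 in Dox + ABT. The difference was 0.33 among libraries of the first kind (p = 0.00284) and 0.17 among those of the second (p = 0.142). Rorb, an orphan nuclear receptor of the ROR family, fell by 0.56 (p = 0.0034), with medians of 78.1 (Veh), 64.8 (Dox) and 69.6 (Dox + ABT). It differed by -0.62 among libraries of the first kind (limma p = 0.0136) and by -0.30 among those of the second (p = 0.3). The call for Rorb was lost without Veh rat 10 or Veh rat 11, where p reached 0.0172.

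Of the 21 clock genes tested, 1 was called higher and 2 lower, where 1.73% of all tested genes were called. Differences were negative for 14 of the 21, with a median of -0.07, and for 7572 of all 15595 genes. Without the covariate 11 of the 21 were negative, with 1 gene called higher and 3 lower, and without Dox rats 1 and 2 the calls were 1 and 4. Members not called, which were named after their values were seen, included the Dbp relative Hlf (-0.25, p = 0.0166), the repressor gene Nr1d1 (-0.21, p = 0.0261; 2013 ± 368 (Veh), 1745 (Dox) and 1478 (Dox + ABT)) and Cry1 (-0.19, p = 0.055). The period genes lay near Veh, with -0.07 for Per1 (p = 0.509), 0.05 for Per2 (p = 0.668) and -0.06 for Per3 (p = 0.587). Clock itself differed by 0.015 (p = 0.84).

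**Figure D3:**
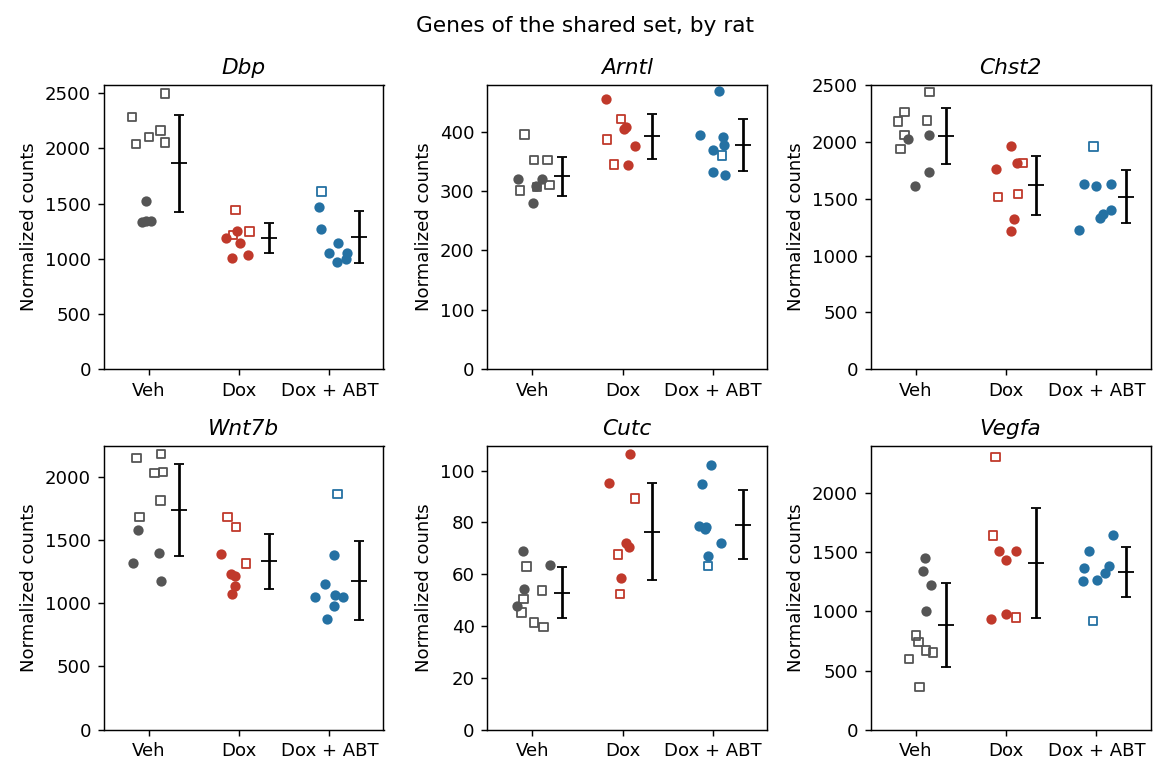
Normalized counts of Dbp, Arntl, Chst2, Wnt7b, Cutc and Vegfa in each rat, by group. Filled circles are libraries of the first kind, open squares those of the second, and bars give the mean ± SD. Of the 16 treated rats 13 lay below every Veh rat for Dbp and 9 for Chst2, and 11 lay above every Veh rat for Cutc, while the Veh rats of the 2 kinds of library did not overlap for Dbp, Wnt7b and Vegfa.

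Chst2, a sulfotransferase that modifies N-acetylglucosamine on glycans, had 1615 to 2443 normalized counts in Veh (median 2063), 1217 to 1962 in Dox (median 1652) and 1225 to 1960 in Dox + ABT (median 1506). It fell by 0.36 (limma p = 0.000231, adjusted p = 0.514), and 9 of 16 treated rats lay below every Veh rat. Cacng4, an auxiliary subunit of AMPA receptors, had medians of 1706 (Veh), 1228 (Dox) and 1196 (Dox + ABT) and fell by 0.31 (p = 0.000462). It was the only called gene among 31 glutamate receptor genes and their partners, which is 3.23% against 1.73% of all tested genes. Kcnn3, which encodes the calcium-activated potassium channel SK3, fell by 0.42 (p = 0.00149), and all 16 treated rats lay below the Veh median. Penk, the precursor of the enkephalins, fell by 0.37 (p = 0.00266), with medians of 812, 527 and 594. These 4 genes were called again without each rat in turn.

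Fads2, the delta-6 desaturase of polyunsaturated fatty acids, had medians of 1730 (Veh), 1192 (Dox) and 1031 (Dox + ABT), and fell by 0.46 (p = 0.000694). Pla2g7, which hydrolyses platelet-activating factor, had medians of 928, 597 and 607 and fell by 0.36 (p = 0.00062). Steap3, a ferric reductase of endosomes, ranged from 297 to 442 in Veh, from 159 to 342 in Dox and from 235 to 308 in Dox + ABT. It fell by 0.39 (p = 0.000592), with 10 of 16 treated rats below every Veh rat. Each of the 3 was called again without each rat in turn. Steap3 was the 1 called gene of 19 tested rows for iron handling (5.26%, against 1.73% of all tested genes). Differences were positive for 12 of the 19, with a median of 0.02, and for 8023 of the 15595 tested genes. Of 24 genes of cholesterol synthesis and uptake 1 was called (4.17%), Cyp51, which was not shared, with -0.44 in Dox and -0.19 in Dox + ABT (direct p = 0.013, and 0.0947 without Dox rats 1 and 2).

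Other lower genes were Pdlim4 (-0.32), a PDZ and LIM protein of the actin cytoskeleton, Tmem176a (-0.43), a membrane protein of myeloid cells, and Ebna1bp2 (-0.83), a factor of ribosome assembly. Ebna1bp2 had medians of 166 (Veh), 93.6 (Dox) and 74.5 (Dox + ABT), and 8 of 16 treated rats lay below every Veh rat. Arhgap22 (-0.35), a GTPase-activating protein for Rac, and Ccdc80 (-0.37), a secreted matrix protein, were no longer called without Veh rat 11, with p of 0.0123 and 0.0234. Ccdc80 differed by -0.49 among libraries of the first kind (limma p = 0.000218) and by -0.11 among those of the second (p = 0.406).

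In the Wnt and Notch pathways, which pattern the neurogenic niche and its vessels, 3 of 36 tested genes were lower and 1 was higher, against 0.866% of all tested genes in each direction, and all 4 were shared (1.38% over all). The ligand Wnt7b ranged from 1174 to 2181 in Veh (median 1747), from 1072 to 1682 in Dox (median 1274) and from 877 to 1866 in Dox + ABT (median 1059), and it fell by 0.31 (p = 0.000878). The highest Dox + ABT value came from rat 4, and the Veh rats had 1683 to 2181 in the second kind of library against 1174 to 1577 in the first. Wnt7b differed by -0.27 among libraries of the first kind (p = 0.0178) and by -0.30 among those of the second (p = 0.0178), with a slope of 0.57 on the ribosomal share. The receptor Notch3, found on mural cells of vessels, fell by 0.47 (p = 0.000951) and Fzd2, a Wnt receptor named after its values were seen, fell by 0.46 (p = 0.00477). The Notch ligand Jag1 rose by 0.42 (p = 0.00453), with medians of 42.2 (Veh), 63.9 (Dox) and 71.2 (Dox + ABT). Its difference was 0.16 among libraries of the first kind (p = 0.293) and 0.69 among those of the second. Without Veh rat 11, p was 0.0152 for Notch3 and 0.0281 for Jag1, whose call was also lost without Veh rat 3 or Dox rat 7, and 1 gene of the list was higher and 1 lower. The median over the list was -0.01. The receptor Fzd6, which the list does not hold, rose by 0.44 (p = 0.00169, and 0.0248 without Veh rat 11).

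Of 24 microglial genes 4 were called lower and none higher, where 0.866% of all tested genes were called lower. Differences were negative for 20 of the 24 and for 7572 of the 15595 tested genes, and the median over the list was -0.26. Of the 4, Csf1r, the receptor for the growth factors on which microglia depend, P2ry13, an ADP receptor of resting microglia, and Laptm5, a lysosomal membrane protein named after its values were seen, were shared. Csf1r ranged from 1367 to 3116 in Veh (median 2329), from 1440 to 2145 in Dox (median 1621) and from 1290 to 2318 in Dox + ABT (median 1462), with every treated rat below the Veh median. It fell by 0.27 (p = 0.00484), P2ry13 by 0.69 (p = 0.00246) and Laptm5 by 0.37 (p = 0.00755). Fcrl2 was lower mainly in Dox (-1.10) and not shared (-0.29 in Dox + ABT, direct p = 0.00029). Summed over the list, levels ran from 6229 to 9720 normalized counts (Veh), from 5557 to 7642 (Dox) and from 6058 to 9791 (Dox + ABT). The count of 4 became 2 without Dox rats 1 and 2, where the median was -0.15 and p was 0.0117 for Csf1r. It became 2 without Veh rat 9, 6 without Dox + ABT rat 4 and 7 without the covariate. Without Veh rat 11, 1 gene of the list was called, the median was -0.26, and p was 0.0201 for P2ry13 and 0.0355 for Csf1r, whose call was also lost without Veh rat 6, Veh rat 9 or Dox rat 5. P2ry13 differed by -0.98 among libraries of the first kind and by -0.20 among those of the second (p = 0.512), and Csf1r by -0.16 (p = 0.161) and -0.37.

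Of 24 astrocyte genes 2 were called lower (0.866% over all tested genes) and 19 had negative differences (7572 of 15595 over all), with a median of -0.13. The count of 2 became 5 without Dox + ABT rat 4 and 4 without the covariate. Aldh1l1, the folate enzyme used as a marker of astrocytes, fell by 0.36 (p = 0.00217), with medians of 478 (Veh), 332 (Dox) and 316 (Dox + ABT). All 16 treated rats lay below its Veh median. Gfap, the intermediate filament of astrocytes, was called but not shared. It had medians of 24173, 13694 and 16003 and differed by -0.64 in Dox and by -0.18 in Dox + ABT (direct p = 0.00093). Without Veh rat 11 neither gene was called (0.0348 for Aldh1l1 and 0.0137 for Gfap), and 0 of the 24 genes were. The median of the list was then -0.15. Of 21 antigen presentation genes 1 was called, the immunoproteasome subunit Psmb9, which fell by 0.51 (p = 0.00311; 0.0406 without Veh rat 11), and 19 differences were negative.

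**Figure D4:**
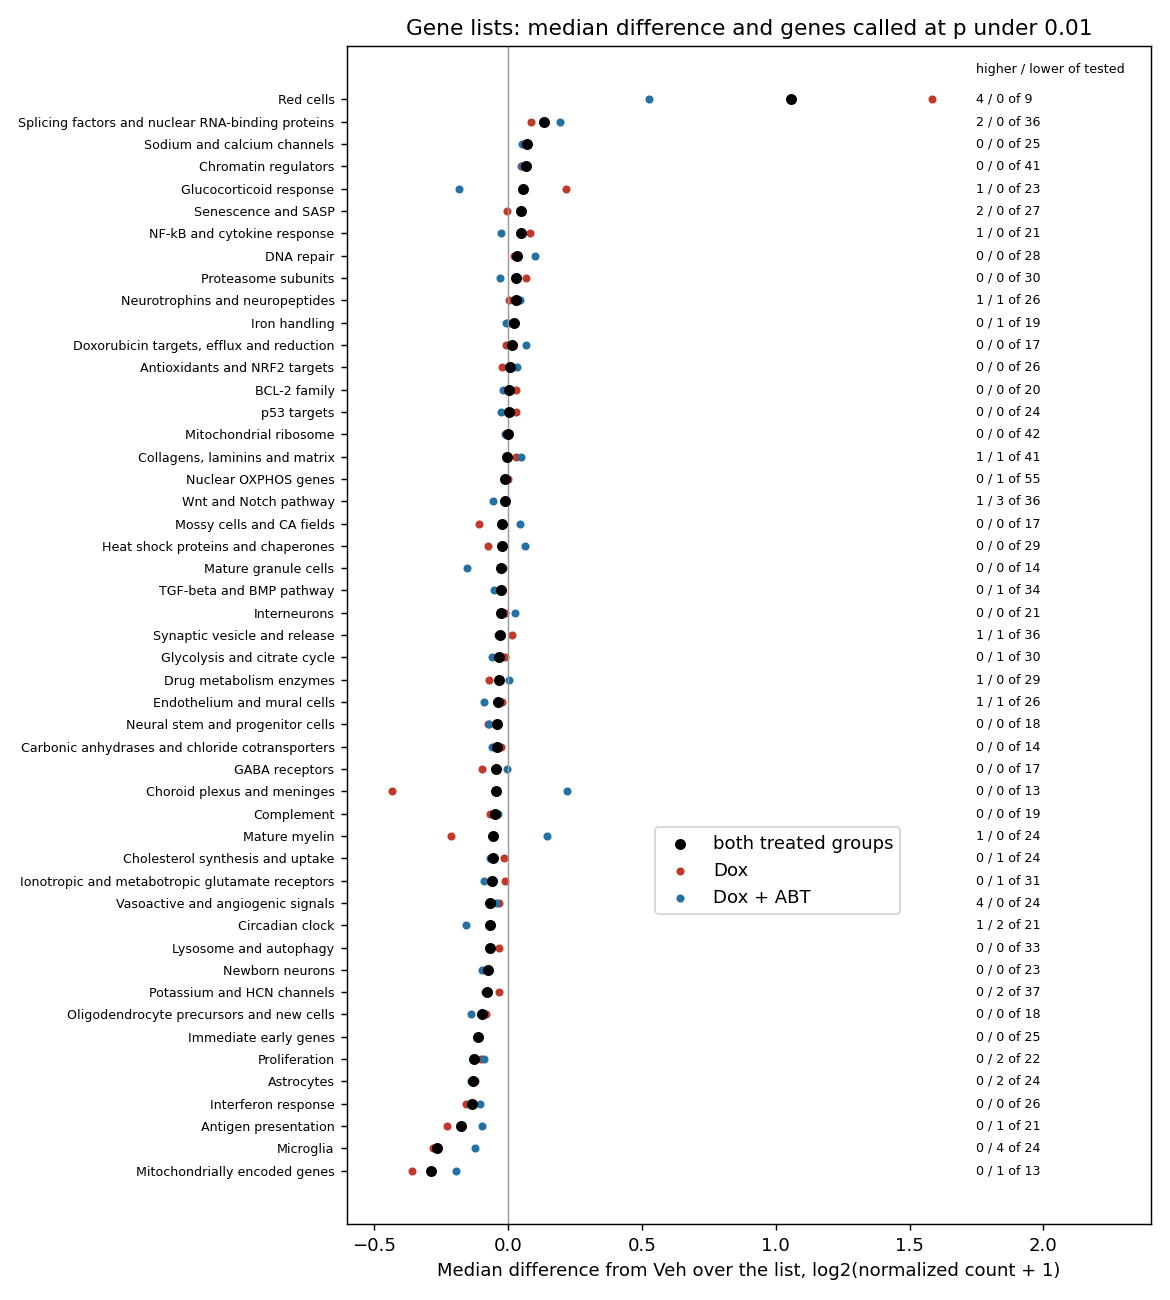
Median difference from Veh on the log2(normalized count + 1) scale for each of the 49 gene lists, in the pooled comparison (black), in Dox (red) and in Dox + ABT (blue), with the number of genes called higher and lower of those tested at the right. The red cell list was highest (1.06 pooled, 1.58 in Dox and 0.53 in Dox + ABT) and, in the pooled comparison, the mitochondrially encoded genes were lowest (-0.29), and the black points of most other lists lay near 0.

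Of 24 vasoactive and angiogenic genes, which set the growth and tone of vessels, 4 were called higher, where 0.866% of all tested genes were, and none lower, although 14 of the 24 differences were negative and the median was -0.07. The 4 genes were called again without Veh rats 9 and 11 and without Dox + ABT rat 4, each left out alone. Vegfa, the main growth factor of endothelium, ranged from 362 to 1449 in Veh (median 769), from 936 to 2306 in Dox (median 1474) and from 918 to 1644 in Dox + ABT (median 1349). It rose by 0.56 (p = 0.00208), and all 16 treated rats lay above the Veh median. The rise was uneven across libraries, with 1.12 in the second kind (p = 0.000823) and 0.095 in the first (p = 0.467). Kdr, its receptor on endothelial cells, had medians of 71.8, 128 and 96.4 and rose by 0.63 (p = 0.00253), by 0.62 among libraries of the first kind and by 0.75 among those of the second. Edn1, the vasoconstrictor endothelin, was low, with medians of 7.34, 13.9 and 15.2, and rose by 0.91 (p = 0.00416, and 0.0161 without Veh rat 5). The fourth, Angpt2, was not shared, with 2.03 in Dox and 0.71 in Dox + ABT (direct p = 0.0097), and its call was lost without Veh rat 10 or Dox rat 7 (p up to 0.0115). Endothelial and mural cell genes had 1 higher and 1 lower of 26, so the list did not lean one way. Osmr, the oncostatin M receptor, had medians of 4.27, 12.05 and 9.67 and rose by 1.11 (p = 0.00279), with p = 0.0104 without Veh rat 5. Dox rats 1 and 2 had 47.4 and 51.6 normalized counts of Osmr against at most 16.5 in the other rats, and without both it differed by 0.83 (p = 0.00429).

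Among the higher genes with the smallest p, Cutc, a copper-binding protein, ranged from 39.6 to 68.9 in Veh (median 52.1), from 52.4 to 106 in Dox (median 71.1) and from 63.1 to 102 in Dox + ABT (median 77.9). It rose by 0.51 (p = 0.000327), with 11 of 16 treated rats above every Veh rat. Ppp4r4, a regulatory subunit of protein phosphatase 4, had medians of 207, 277 and 279 and rose by 0.31 (p = 0.000165, adjusted p = 0.514). Atpsckmt, a lysine methyltransferase of the mitochondrial ATP synthase, rose by 0.34, the transcription factor Gmeb1 by 0.31, the dynein light chain gene Tctex1d2 by 0.35 and Rin1, a Ras effector of forebrain neurons, by 0.19. All 6 were called again without each rat in turn. Spag7 rose by 0.24 (p = 0.0012), and its call was lost without Veh rat 11 (p = 0.0183).

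**Figure D5:**
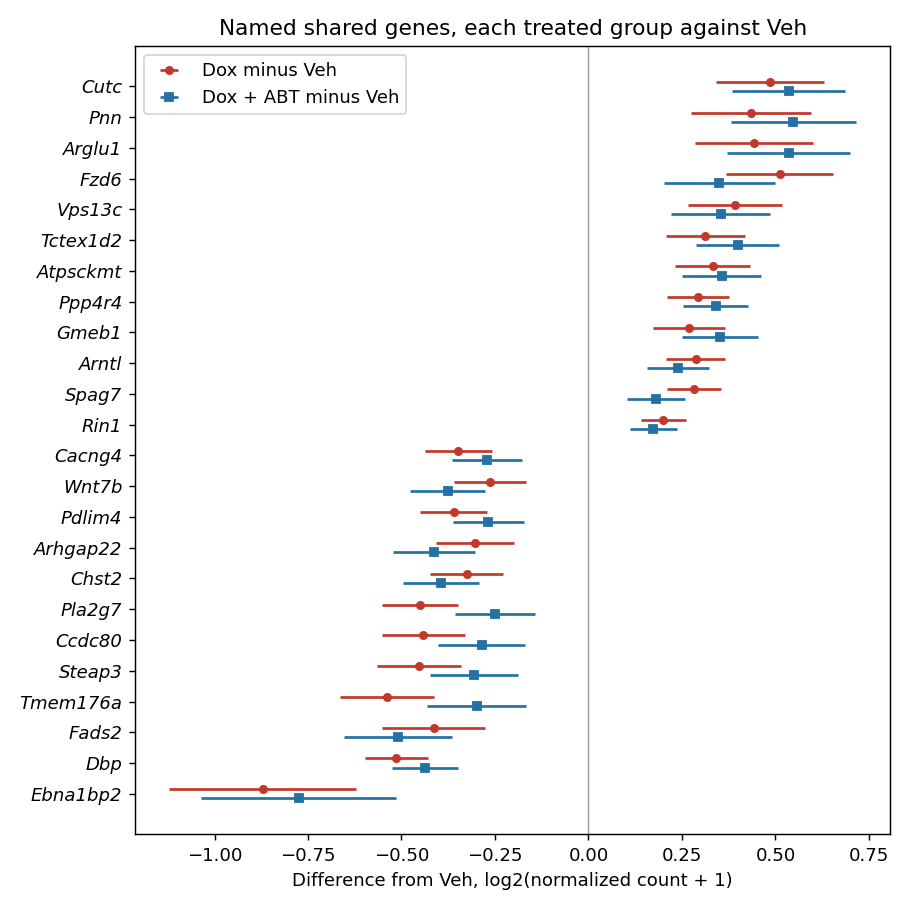
Difference from Veh on the log2(normalized count + 1) scale in Dox (red circles) and in Dox + ABT (blue squares), with standard errors, for the 12 higher and 12 lower shared genes with the smallest p. Both comparisons use the same 10 Veh rats, and the definition of shared fixes that both points lie on one side of 0; the values ran from -0.87 for Ebna1bp2 in Dox to 0.55 for Pnn in Dox + ABT.

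Of 36 splicing factors and nuclear RNA-binding proteins 2 were called higher (0.866% over all tested genes) and none lower, and 10 were called higher without the covariate and 3 without Dox + ABT rat 4. Without Dox rats 1 and 2, which had 841 and 844 normalized counts of Cirbp against at most 477 in the others, neither Srsf1 nor Cirbp was called (p = 0.0112 and 0.0119) and 1 gene of the list was. Differences were positive for 32 of the 36, with a median of 0.13, and for 8023 of the 15595 tested genes. Srsf1, a splicing factor of the SR family, rose by 0.23 (p = 0.00576), and Cirbp, a cold-inducible RNA-binding protein, rose by 0.50 (p = 0.00721). Both calls were lost without Veh rat 9 or Veh rat 11, where 28 and 31 differences of the list were positive, that of Srsf1 also without Veh rat 3, and that of Cirbp without any of 7 rats. Arglu1 and Pnn, which bind splicing and transcription complexes, were shared genes outside that list. Arglu1 had medians of 477 (Veh), 848 (Dox) and 1005 (Dox + ABT) and rose by 0.49 (p = 0.00139, and 0.0148 without Veh rat 11). Pnn had medians of 529, 769 and 901 and rose by 0.49 (p = 0.0016), by 0.86 in the second kind of library and by 0.17 in the first (p = 0.274). Levels of both fell as the ribosomal share rose, with slopes of -0.92 for Arglu1 and -0.58 for Pnn. Vps13c, a lipid transfer protein of endosomes and mitochondria, had a slope of -0.99, and none of the 16 treated rats lay above every Veh rat although it rose by 0.37 (p = 0.0019). Of the 110 higher shared genes 51 varied with the ribosomal share at limma p under 0.01, 40 of them downward, and of the 105 lower shared genes 49 did so, 43 of them upward. Over all 15595 tested genes 36.0% did so, 2567 genes downward and 3046 upward.

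All 13 mitochondrially encoded genes had negative differences, with a median of -0.29, and 1, Mt-co2, was called (-0.44, p = 0.00561). Over all 15595 tested genes 7572 differences were negative and 0.866% were called lower. Without the covariate the median was -0.55 and 2 were called, and with the kind of library as covariate it was -0.25 and none was (Mt-co2, limma p = 0.0138). Mt-co2 differed by -0.14 among libraries of the first kind (p = 0.474) and by -0.85 among those of the second (p = 0.015). Its call was lost without any of 6 rats, and p reached 0.0268 without Veh rat 11. Of 55 nuclear genes of oxidative phosphorylation 30 had negative differences, 50 without the covariate and 38 with the kind of library as covariate or without Veh rat 11, and 1 was called (1.82%, against 1.73% of all tested genes), Sdhb (-0.13, p = 0.00661), whose call was also lost without any of 6 rats (p up to 0.0176). Sdhb differed by -0.017 among libraries of the first kind (p = 0.843) and by -0.28 among those of the second (p = 0.0083).

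Lists tied to the drugs are short, and at the 1.73% of all tested genes that were called few calls would fall in them. None of 24 p53 targets, 28 DNA repair genes, 20 BCL-2 family genes, 17 genes of doxorubicin targets and efflux, or 26 antioxidant genes was called, and the medians of these lists lay between 0.003 and 0.034. At an unadjusted limma p under 0.05, 2 of their 109 genes were higher and 5 lower, where 7.98% of all tested genes passed in either direction. Without the covariate 1 p53 target was called higher, and 1 BCL-2 family gene and 2 antioxidant genes lower. The same counts were found for these 3 lists without Dox + ABT rat 4. The p53 target Cdkn1a, named after its values were seen, differed by 1.15 in Dox and by 0.02 in Dox + ABT (direct p = 0.00674), and by 0.49 and 0.05 without Dox rats 1 and 2 (direct p = 0.0888). Of 27 senescence and secretory genes 2 were called higher, Vegfa and Edn1 (0.866% over all tested genes), with a median of 0.05. None of 23 newborn neuron genes was called in limma, with 17 negative differences and a median of -0.07. At limma p under 0.05, 5 of the 23 were lower, where 7.98% of all tested genes passed in either direction. Without the covariate 3 of the 23 were called lower, and without Dox + ABT rat 4 the count was 1. Of 22 proliferation genes 2 were lower (0.866% over all), the replication helicase subunit Mcm6 (-0.36, p = 0.00212) and Ccnd1 (-0.62, p = 0.00726), the latter not shared. Dox rats 1 and 2 had 96.8 and 113 normalized counts of Ccnd1 against 268 to 660 in the other 24 rats, and without both it differed by -0.39 (p = 0.000824) and was shared. Neither Mcm6 nor Ccnd1 was called without Veh rat 11. None of 25 immediate early genes was called in limma (3 lower at p under 0.05), with a median of -0.11.

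Of 37 potassium and HCN channel genes 2 were lower, Kcnn3 and the leak channel gene Kcnk9 (-0.36, p = 0.00512), which is 5.41% of the list against 1.73% of all tested genes. For Kcnk9 9 of the 16 treated rats lay below the Veh median, and without the covariate it differed by -0.12 (p = 0.471). Of 36 synaptic vesicle genes 1 was higher and 1 lower (5.56%), the priming factor Unc13b (0.29, p = 0.0045) and the synaptotagmin Syt9 (-0.62, p = 0.00898). Bmp6, a ligand of the BMP family, fell by 0.35 (p = 0.00285) and was the only called gene of 34 in the TGF-beta and BMP pathways, and Idh1, the cytosolic isocitrate dehydrogenase, fell by 0.19 (p = 0.00422) and was the only one of 30 in glycolysis and the citrate cycle. Hapln2, a link protein of perinodal matrix made by oligodendrocytes, rose by 0.52 (p = 0.00947) and was the only called gene of 24 of mature myelin, whose median was -0.21 in Dox and 0.14 in Dox + ABT. Calls for Bmp6, Idh1, Unc13b, Kcnk9, Syt9 and Hapln2 were each lost without at least 1 rat, and for Syt9 and Hapln2 without any of 17 and 16 rats, with p up to 0.0102, 0.0265, 0.0107, 0.0295, 0.0401 and 0.0359. Of 41 collagen, laminin and matrix genes 1 was called higher, Hapln2, and 1 lower, Hapln1 (4.88%). Without the covariate Syt9, Bmp6, Sult1a1 and Tctex1d2 were not called, with p from 0.0124 to 0.02. With the kind of library as covariate Rorb, Sdhb, Syt9, Kcnk9, Ccnd1, Sult1a1, Pla2g3, Hapln1 and Hapln2 were not, with p from 0.0103 to 0.0459. With the ribosomal share in percent in place of its log2, calls were lost for Unc13b, Jag1, Csf1r, Srsf1, Cirbp, Mt-co2, Sdhb, Ccnd1 and Hapln2 (p from 0.0102 to 0.0563), and with library weights for Fzd6, Rorb, Csf1r, Kcnk9, Mt-co2 and Cirbp (p from 0.0116 to 0.0382). With the mitochondrial share as a second covariate calls were lost for 18 named genes, among them Gfap, Edn1, Jag1, Csf1r, Psmb9, Rorb and Vps13c (p from 0.0101 to 0.0316). Without Dox rats 1 and 2 calls were lost for Alas2, Csf1r, Kcnk9, Hbb-bs, Srsf1, Cirbp, Syt9 and Hapln2 (p from 0.0105 to 0.0251), and Arhgap22, Notch3, Arglu1 and Unc13b were called but not shared. None of 25 sodium and calcium channel genes was called in limma, and 19 of their differences were positive. At limma p under 0.05, 2 were higher and 1 lower, where 7.98% of all tested genes passed in either direction.

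The remaining 55 called genes were not shared. With the ribosomal share as covariate, all 270 called genes had the same sign in both groups. Mean levels before that adjustment did not always do so. Alas2 had means of 59.2 (Veh), 240 (Dox) and 43.9 (Dox + ABT) normalized counts, and Hbb-bs had 406, 1554 and 258. The adjusted difference was larger in Dox in 44 of the 55 and larger in Dox + ABT in 11. Hhatl, a relative of the hedgehog acyltransferase, had medians of 230 (Veh), 79.2 (Dox) and 125 (Dox + ABT), with differences of -1.09 and -0.36 (direct p = 0.00069). Fbxo34, an F-box protein, differed by 0.38 and 0.17 (direct p = 0.022), the phospholipase gene Pla2g3 by 2.17 and 0.58, the sulfotransferase gene Sult1a1 by 0.84 and 0.21, and Hapln1, a link protein of perineuronal nets, by -0.45 and -0.15. Dox rats 1 and 2 had 449 and 360 normalized counts of Pla2g3 against 27.7 to 47.3 in the other 6 Dox rats, and 791 and 792 of Sult1a1 against 204 to 399. Without both, Pla2g3 differed by 1.30 in Dox and 0.63 in Dox + ABT, and Sult1a1 by 0.48 and 0.23, and the pooled differences were 0.94 and 0.34. Of the 55 genes 30 were then called, 11 of them as shared, Fbxo34 included. Red cell genes had 4 of 9 called higher, against 0.866% of all tested genes (Alas2, Ahsp and the globin genes Hbb-bs and Hbb, which can share reads), and none shared, with a median of 1.06 in the pooled comparison, 1.58 in Dox and 0.53 in Dox + ABT. Their summed level ran from 6195 to 31037 normalized counts (Veh), from 7989 to 139647 (Dox) and from 7816 to 16189 (Dox + ABT), so every Dox + ABT rat lay within the Veh range before the adjustment for the ribosomal share. The medians of these sums were 16630 (Veh), 24887 (Dox) and 10374 (Dox + ABT). By these medians Dox + ABT lay below Veh before the adjustment, while the adjusted difference was positive. Without the covariate none of the 9 was called and the median was 0.25, while without Veh rat 11 the count was 7 and the median 1.51, and without Dox rats 1 and 2 the count was 1 and the median 0.86. Without Dox rat 7, Alas2, Hbb-bs, Ahsp and Sult1a1 were no longer called, with p of 0.0186, 0.0194, 0.0271 and 0.0147, and without Veh rat 11 neither were Pla2g3 (p = 0.0151) and Hapln1.

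The shared genes with the largest differences were mostly low. A difference of more than 1 on the log2 scale was found in 13 of the higher and 4 of the lower shared genes. Of these, named after their values were seen, Zfp474, a zinc finger gene, fell by 1.25 (12.4 ± 4.56 (Veh), 4.56 (Dox) and 5.80 (Dox + ABT), p = 0.000429), with 12 of 16 treated rats below every Veh rat. P4ha3, a prolyl hydroxylase of collagen, fell by 1.09 (14.4 ± 6.49, 7.53 and 7.74, p = 0.000165). Pglyrp1, which binds bacterial peptidoglycan and is abundant in neutrophils, rose by 1.56 (3.76 ± 3.57, 10.5 and 11.6, p = 0.000624). Such levels rest on few reads.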

How the data were processed

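Poly(A) RNA of the dentate gyrus was selected from 26 rats and sequenced on an Ion Proton. According to the submitters' processing notes and the methods, the authors aligned reads to rn6 with STAR 2.5.3a in Partek Flow, normalized counts by the Median Ratio method and tested genes with DESeq2. The deposited values are a normalized signal, read counts divided by a size factor per library, and cover 24012 rows of 17910 genes. All columns were mapped to samples by their titles (0 were not). Among low values 77.5% to 81.4% per library were whole multiples of 1 read (tolerance 0.05 reads), so raw reads could not be rebuilt and count tests were left out. The value of 1 read was taken as the largest step between low values that fitted nearly as well as the best. It gave the estimated depth, at which genes near the filter rest on few reads.

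Rows were summed by gene, and log2(value + 1) of genes with a mean of at least 5 was fitted in R 4.3.3 with limma 3.58.1 (lmFit, eBayes with a variance trend), with treatment and the centred log2 ribosomal protein share as terms. A second fit with 3 groups gave the Dox, Dox + ABT and direct differences. Fold changes on this scale understate changes of low genes. Tests were two-sided, at p under 0.01 with Benjamini-Hochberg adjustment beside it, and the fit was tested on simulated data. Groups came from the labels, and shares were compared by permutation over rats (100000 resamples). Kinds of library were found by clustering the first principal component (28.4% of the variance within groups). Whether rats of a group came from separate litters or cages is not given in the sources used here, so p-values measure the spread between these samples.

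The members and the 49 gene lists were chosen with earlier results of these data known. Named genes were the 12 shared genes per direction with the smallest p and a mean of at least 50, genes with an adjusted p under 0.05, up to 3 called genes per list, and 3 unshared genes per direction. Clones, predicted loci and ribosomal protein genes were left out of the shared and unshared choices, and the same minimum mean held for both. Genes outside this rule are said to be named after their values were seen, and calls are not independent evidence for their list. Promoter sequences came from RefSeq (GRCr8), another assembly than rn6, matched by symbol. Alternatives changed the covariate, grouping, pseudocount (0.5, 5), filter (none, a mean of at least 20), variance model, library weights, scaling, feature, block, libraries and definition of shared. Leaving out Dox rats 1 and 2 together was chosen after seeing the data. Python 3.11.15 and matplotlib 3.10.9 drew the figures.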

Additional observations from a re-analysis of the deposited data

Results flagged for a closer look

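Single rats stood apart from the rest of their group in 25 of 189 sets of values tested by Dixon's gap criterion (13.2%), where chance marks about 1 in 20. Of the 25, 14 came from Dox + ABT rat 4, the 1 library of the second kind in that group. In that rat the mitochondrial share was 16.2% (next 9.68%), and levels lay above the other Dox + ABT rats for Pdlim4 (483.1), Cacng4 (1698), Pla2g7 (924), Ccdc80 (289), Tmem176a (571), Gfap (25642), Aldh1l1 (469.8), P2ry13 (61.4), Csf1r (2318), Hapln1 (565) and Ccnd1 (593.5). They lay below the others for Vps13c (1163) and Unc13b (437). The lower shared genes among these were nearer to the Veh levels in rat 4 than in the other treated rats of its group, and without it more genes were called, 215 higher and 243 lower. In Dox + ABT rat 11, Arntl was high (469.4) and Rin1 low (2249).

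In Dox, rat 7 had a high mitochondrial share (12.99%, next 9.39%) and a high level of the red cell gene Alas2 (953). Single high values were found in Dox for Fads2 (1994, rat 14), Pnn (1214, rat 5) and Edn1 (44.6, rat 2). In Veh they were found for Ccdc80 (343, rat 12), Cyp51 (2508, rat 9), Pla2g3 (33.6, rat 6) and Ahsp (5.50, rat 1). Their part in the differences was not tested beyond leaving out each rat.

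For 11 of the named genes the direct comparison of Dox with Dox + ABT had a limma p under 0.05, so the effect against Veh differed between the treated groups. On the log2 scale Dox minus Dox + ABT was -0.73 for Hhatl, -0.25 for Cyp51, -0.82 for Fcrl2, -0.46 for Gfap and -0.30 for Hapln1, where Dox was the lower. It was 0.20 for Fbxo34, 1.32 for Angpt2, 1.08 for Alas2, 1.58 for Pla2g3, 0.95 for Hbb-bs and 0.63 for Sult1a1, where Dox was the higher. Without Dox rats 1 and 2, the direct p was 0.05 or more for Cyp51, Fbxo34, Hapln1, Angpt2, Alas2 and Hbb-bs (from 0.0775 to 0.252). None of these genes was shared by the definition used, which this comparison enters.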

How the results depend on the processing

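Without the ribosomal share as covariate, 396 genes were higher and 364 lower, of which 344 and 297 were shared. With the kind of library in its place 87 genes were lower and 57 of them shared, and with library weights 88 and 64. Within the first kind of library the counts were 77 and 74 (70 and 65 shared, 0 at an adjusted p under 0.05), and within the second 244 and 288, with 4 at an adjusted p under 0.05. A ratio of at least 0.75 left 64 higher and 47 lower shared genes. With 1 rat left out, higher genes ran from 75 to 215, lower genes from 61 to 243, shared genes from 61 to 183 and from 44 to 192, and genes at an adjusted p under 0.05 from 0 to 1. The rats that moved a count by over 1.5 times were Veh rats 9 and 11, Dox + ABT rat 4 and, for higher shared genes alone, Veh rat 6 (166). The cause was not tested. The other planned settings, apart from the block given below, kept each count within 1.5 times. Of the 61 named genes, calls were lost for 18 with the mitochondrial share as a second covariate, 10 with the kind of library, 9 with the share in percent, 8 without the covariate, 6 each with library weights and with ranks, 4 without the variance trend, and 1 to 3 with the 3 group terms, quantile normalization, robust variances or a pseudocount of 5. Without Dox rats 1 and 2, left out together after the data were seen, 131 of the 215 shared genes were called again. The 215 shared genes kept their direction in every setting over all 26 rats in which they were tested. They were chosen by p from these same rats, so this direction was nearly fixed and is no separate support. They were called again in 178 cases without the covariate, 22 within the first kind of library and 56 within the second.

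A replicate number shared between groups belongs to different rats. Over 16 same-numbered pairs the correlation of deviations from the group means ran from -0.43 to 0.43, and 7 were above 0.1. The median was 0.080, against -0.032 for pairs with different numbers. Whether rats of the same number were handled together was not tested. With the number as a block, 50 genes were higher and 52 lower (44 and 45 shared, 0 at an adjusted p under 0.05 and 650 at an unadjusted p under 0.05), 52 of the 61 named genes were not called, and Dbp differed by -0.42 (p = 0.00065). Depth limits the genes near the filter of 5.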
